A study of Homo sapiens with 4 samples.

Results

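The E2F factors, their dimerization partner TFDP1 and their repressor RB1 were examined for m6A peaks in OE-19 cells, an established cell line of adenocarcinoma of the esophagogastric junction (AEG). The 10 genes (E2F1 to E2F8, TFDP1 and RB1) were fixed by name, among 20046 protein-coding genes, and all peaks with the summit in their gene bodies were taken. These were 19 of 24607 peaks in replicate 1 and 10 of 19318 peaks in replicate 2. In m6A meRIP-seq, an antibody against N6-methyladenosine (m6A) enriches modified pieces of RNA, which are sequenced, and peaks mark where their reads accumulate. OE-19 cells without a labelled treatment gave 4 samples, namely 2 replicates of the m6A immunoprecipitation (IP) and 2 of the unselected input RNA. For each IP replicate 1 peak list was used, no peak list of the input was analysed here, and a single line was profiled. The lists hold no read numbers, so the depth behind each peak is unknown.

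E2F factors bind the promoters of genes needed for DNA synthesis as dimers with a DP protein such as TFDP1. E2F1, E2F2 and E2F3 are the activators, and their C-terminal transactivation domain is masked by the pocket protein RB1 until cyclin-dependent kinases phosphorylate it in late G1. E2F4 and E2F5 act mostly as repressors together with the pocket proteins RBL1 and RBL2, whereas E2F6, E2F7 and E2F8 repress without pocket proteins. In mRNA, m6A is typically found in long internal exons and around the stop codon, within the 5-base consensus DRACH (A, G or T first, then a purine, then AC, and any base but G last), with GGAC as its best known core.

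An exonic peak was found in both replicates for 7 of the 10 genes: E2F1, E2F2, E2F3, E2F4, E2F7, E2F8 and TFDP1. RB1 had an exonic peak in replicate 1 alone, E2F6 in replicate 2 alone, and E2F5 had no peak in either list. Thus 8 genes had an exonic peak in each replicate and 9 in either. Over all protein-coding genes, the share with an exonic peak was 42.4% in replicate 1, 34.1% in replicate 2, 33.4% in both and 43.1% in either. That background includes genes that OE-19 cells may not express, and expression was not measured here. No test was made, since the genes were selected with earlier results of these data known.

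The sequences below are stretches of the E2F1 to E2F4 transcripts at or near the summits of the shared peaks. Each is given 5′ to 3′ on the strand of the gene in hg38, with GGAC in capitals. They are shown because these 4 genes had their strongest exonic peak of both replicates around the stop codon. For E2F1 and E2F3, 101 nt of coding sequence (CDS) centred between the summits of the 2 replicates is given, and for E2F2 and E2F4 the 29 nt around the nearest GGAC. The E2F2 stretch holds the summit of replicate 2 but not that of replicate 1.
E2F1 (chr20:33676795-33676895, minus strand): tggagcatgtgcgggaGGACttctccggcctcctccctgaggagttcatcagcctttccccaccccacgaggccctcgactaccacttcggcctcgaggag
E2F2 (chr1:23509882-23509910, minus strand): ctacgaccttggGGACctgttgattaatt
E2F3 (chr6:20490252-20490352, plus strand): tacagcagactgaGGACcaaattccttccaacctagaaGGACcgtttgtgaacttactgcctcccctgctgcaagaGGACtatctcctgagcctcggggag
E2F4 (chr16:67198139-67198167, plus strand): cctgtgtggctgGGACccagactgtctga

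Among the activators, E2F3 carried the strongest exonic peak in replicate 1 and E2F2 in replicate 2. E2F3 (ENSG00000112242.16) lies on the plus strand of chromosome 6 from 20401879 to 20493714 and has 7 exons in transcript ENST00000346618.8. The peak in its last exon had a fold enrichment, the ratio of signal at the summit to the local background of the peak caller, of 15.8 in replicate 1 and 6.16 in replicate 2. The first value stood at percentile 97.8 of the exonic peaks of protein-coding genes in its list and the second at percentile 69.9. It ran from 20490155 to 20491250 in replicate 1 and from 20490168 to 20491009 in replicate 2, which made it the widest of all peaks in the 10 genes at 1096 and 842 bp. The summits were 13 bp apart, at positions −133 and −120 relative to the stop codon (its first base being 0, with negative positions upstream on the mRNA), in codons 421 and 426 of 465. The 842 bp common to both peaks held 260 nt of CDS, and the other 582 nt began with the stop codon. All 4 of its GGAC motifs lay in the CDS part, with their adenines at −238, −161, −136 and −98, and the last 3 are the capitals in the E2F3 sequence above. Nearest to the summits was the second of these, 3 nt before the summit of replicate 1 and 16 nt before that of replicate 2.

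E2F2 (ENSG00000007968.7, minus strand of chromosome 1, 23506438 to 23531233) had the highest fold enrichment of the set in replicate 2. Its shared peak had a fold enrichment of 11.6 in replicate 1 (percentile 92.1) and 7.99 in replicate 2 (percentile 85.4). The −log10 q values, 70.5 and 57.3, were the largest among the peaks of the 10 genes in each list. In replicate 2 the summit lay at position 0 and in replicate 1 at 27. The common 522 bp in exon 7 held 244 nt of CDS, with 278 nt beyond it. There were 6 GGAC motifs in it, at −152, −89, −83, −14, 84 and 91. The motif shown above is the one at −14, and that sequence ends on position 0.

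E2F1 (ENSG00000101412.13, minus strand of chromosome 20, 33675477 to 33686385), which like E2F3 was among the G1-S transition genes that the study assayed, differed more between the replicates than E2F2 and less than the E2F3 peak in exon 7. Its shared peak had a fold enrichment of 6.89 in replicate 1 (percentile 68.8) and 3.02 in replicate 2 (percentile 18.3). It ran from 33676558 to 33677238 in replicate 1 and from 33676649 to 33677137 in replicate 2. This reached from the last exon across the intron into exon 6, with 556 of 681 bp and 364 of 489 bp in exons. The summits were 5 bp apart, at positions −114 and −109, in codons 400 and 401 of 437. As in E2F3, the summits thus fell in the sequence that encodes the C-terminal end of the protein. The common interval held 5 GGAC motifs, at −203, −197, −143, −20 and 17, of which that at −143 is in the E2F1 sequence above.

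E2F4 (ENSG00000205250.9, plus strand of chromosome 16, 67192155 to 67198918), the most widely expressed repressor E2F, had 1 peak per replicate. Its fold enrichment was 5.49 in replicate 1 (percentile 53.8) and 2.32 in replicate 2 (percentile 6.77). The summits were 1 bp apart, at positions 23 and 24 in exon 10. Within the 162 bp common to both peaks, 14 nt were CDS, and the 3 GGAC motifs lay at 12, 32 and 65. In all, the summits of the strongest exonic peak of E2F1, E2F2, E2F3 and E2F4 were within 200 nt of the stop codon in both replicates. Of all exonic summits of protein-coding genes, 24.6% in replicate 1 and 27.2% in replicate 2 were in this window. No share for the strongest peak of each gene is given here. A replicate 1 peak of E2F2 at exon 6, described below, had a higher fold enrichment and is left out by the position of its summit.

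**Figure D1:**
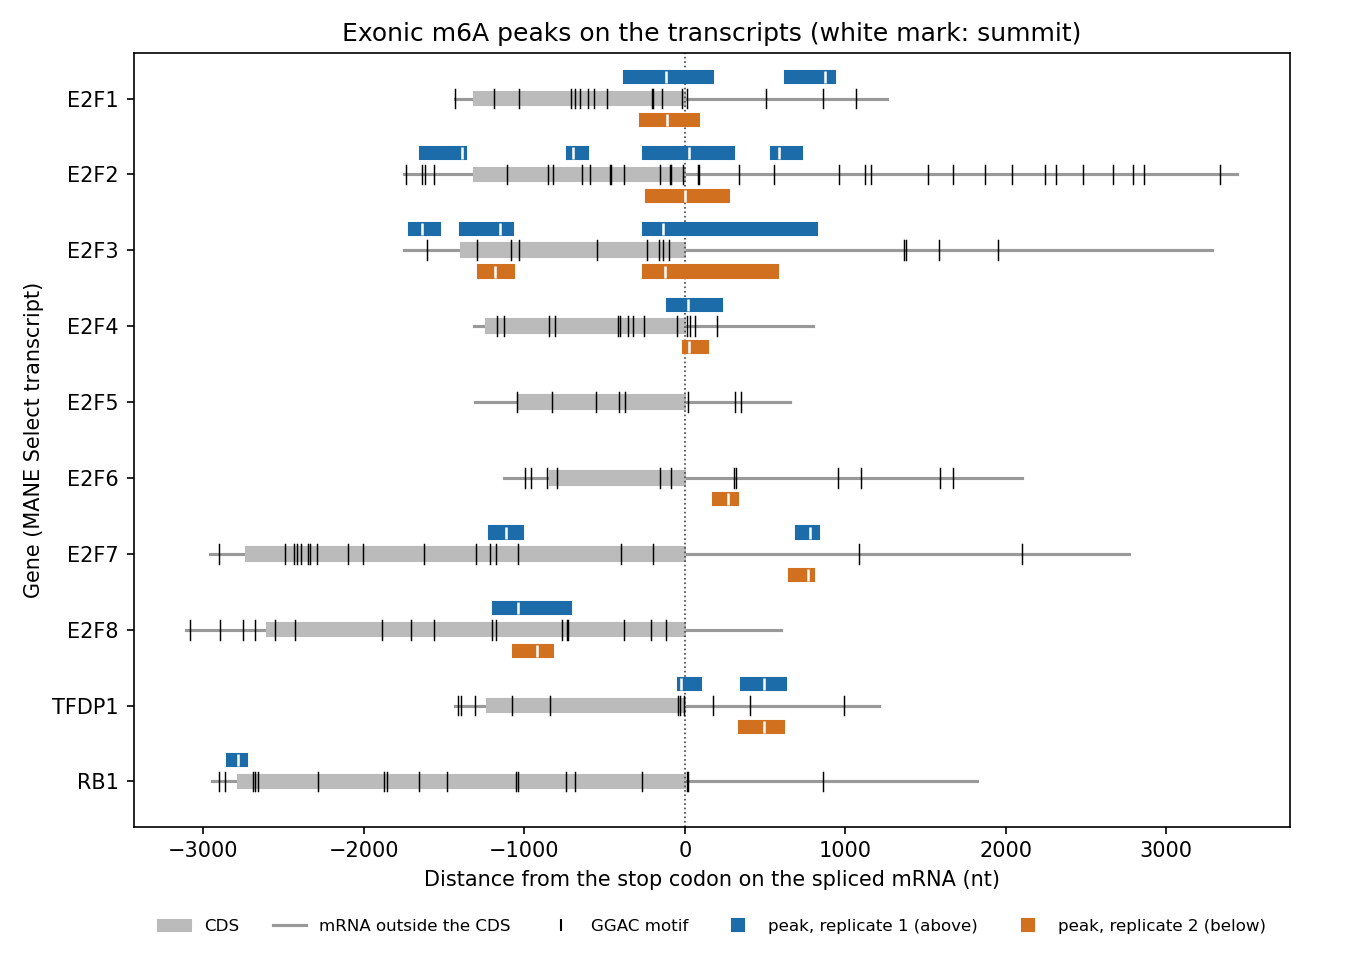
Exonic peaks on the spliced mRNA of each gene, with the distance from the stop codon in nt on the x axis, replicate 1 above and replicate 2 below each transcript. The shared peaks of E2F1 to E2F4 nearest the stop codon span or adjoin the dotted line, while those of E2F7 and TFDP1 lie in the 3′ UTR at 767 to 781 nt and 493 to 497 nt, and that of E2F8 lies in the CDS.

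The atypical repressors E2F7 and E2F8, which carry a pair of DNA-binding domains and need no DP partner, had their shared peaks elsewhere. E2F7 (ENSG00000165891.16, minus strand of chromosome 12, 77021248 to 77065569) had a peak in the 3′ UTR with a fold enrichment of 5.68 in replicate 1 (percentile 56.2) and 4.49 in replicate 2 (percentile 45.9). Its summits lay at positions 781 and 767, and the common 113 bp held 9 DRACH motifs and no GGAC. E2F8 (ENSG00000129173.13, minus strand of chromosome 11, 19224063 to 19241620) had a weak peak in CDS of exon 10, with a fold enrichment of 2.41 in replicate 1 (percentile 6.37) and 2.12 in replicate 2 (percentile 4.31). Its summits were 119 bp apart, the widest gap among the shared peaks, at codons 521 and 561 of 867. The replicate 1 peak of 578 bp held 4 GGAC motifs, but the 252 bp common to both held none. CSRP3-AS1, a long non-coding RNA gene on the opposite strand, spans E2F8, and no exon of it held either summit.

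TFDP1 (ENSG00000198176.13, plus strand of chromosome 13, 113584721 to 113641473) had a shared peak in the 3′ UTR, with summits at positions 497 and 493. Its fold enrichment was low and close in both lists, at 2.93 in replicate 1 (percentile 13.9) and 2.64 in replicate 2 (percentile 11.6). Its −log10 q values were nevertheless 18.9 and 18.1, above the −log10 q values of 8.55 and 6.53 of the E2F7 peak, whose fold enrichment was higher. The common 266 bp held 1 GGAC, 89 nt before the summit of replicate 1, and 9 DRACH motifs. For the shared peaks of E2F7, E2F8 and TFDP1, which had no GGAC within 50 nt of a summit, the DRACH motif nearest to the midpoint of both summits is given in capitals within 29 nt, to set beside the GGAC motifs of E2F1 to E2F4.
E2F7 (chr12:77023227-77023255, minus strand): ctgcttctcaaaTAACTgtgtgaacagtg
E2F8 (chr11:19229663-19229691, minus strand): tactggctcaaaAGACTccacagatgcca
TFDP1 (chr13:113640747-113640775, plus strand): atgcaactttctAAACAgccccaagcaaa
In E2F7 and TFDP1 the adenine of the motif was within 10 nt of both summits. In E2F8 it was 12 nt from the summit of replicate 2 and 107 nt from that of replicate 1.

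A further shared peak lay in the first exon of E2F3. This exon belongs to the longer of 2 annotated E2F3 transcripts and not to the other, which starts downstream of it. The summits lay in CDS at codons 82 and 71. The fold enrichment was 3.49 in replicate 1 and 3.43 in replicate 2, the closest agreement among the 8 shared peaks. Its −log10 q of 3.83 and 3.69 was the lowest among them, and no GGAC lay within 50 nt of either summit.

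RB1 (ENSG00000139687.16, plus strand of chromosome 13, 48303744 to 48599436), with 27 exons and a CDS of 2784 nt, had 1 exonic peak, in replicate 1. It covered 127 bp of exon 1 with its summit on the first base of the start codon, 163 nt from the annotated mRNA start. The fold enrichment was 2.40 (percentile 6.16) and the −log10 q was 3.85. The only peak of replicate 2 in RB1 was in intron 17, 1640 nt from the nearest exon, with a fold enrichment of 4.23 and a −log10 q of 2.34. RB1 overlaps 8 genes on the opposite strand, and no exon of these held a summit, but the lists do not give the strand of the RNA. E2F6 (ENSG00000169016.17, minus strand of chromosome 2, 11444375 to 11466177) had 1 peak of 157 bp in the 3′ UTR in replicate 2, with a fold enrichment of 5.42 (percentile 60.2) and its summit at position 270. A TGGAC motif lay 38 nt from the summit and is shown because it is the only TGGAC within 50 nt of any exonic summit of the 10 genes.
E2F6 (chr2:11446157-11446185, minus strand): tcaggctgaaatGGACagttctttgtgga

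E2F5 (ENSG00000133740.11), the other pocket-bound repressor, had no peak with its summit in the gene body in either list. Its transcript of 1964 nt was the shortest of the 10 and held 8 GGAC motifs. A missing peak does not show that an RNA lacks m6A, since an RNA of low abundance may give no peak.

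**Figure D2:**
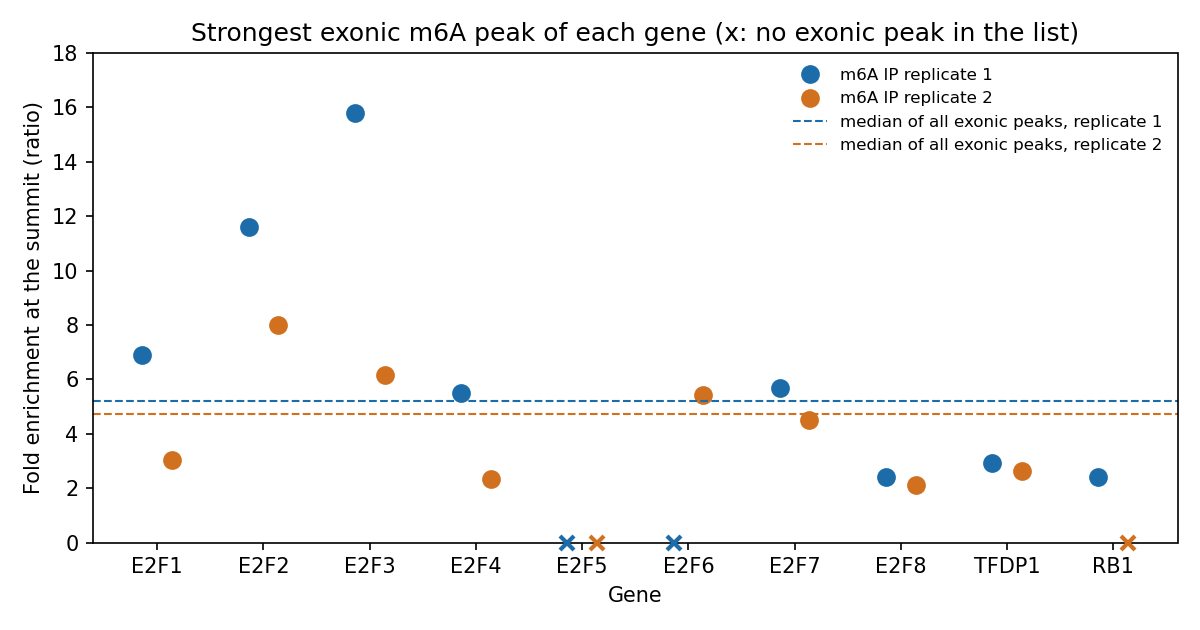
Fold enrichment at the summit (ratio, y axis) of the strongest exonic peak of each gene in each m6A IP replicate, with dashed lines at the median of all exonic peaks of protein-coding genes, 5.21 and 4.72. Of the 7 genes with a peak in both lists, only E2F2 and E2F3 were above the median in both, and crosses mark lists without an exonic peak.

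The order of the genes by fold enrichment was E2F3, E2F2, E2F1, E2F7, E2F4, TFDP1, E2F8 and RB1 in replicate 1, and E2F2, E2F3, E2F6, E2F7, E2F1, TFDP1, E2F4 and E2F8 in replicate 2. E2F2 and E2F3 stood first in both, but they exchanged places, and the gap between the replicates of E2F3 was larger than the gap between E2F3 and E2F2 in either list. E2F1, E2F4 and E2F7 likewise differed from each other by less than E2F1 and E2F4 did between the replicates. The median over all exonic peaks of the 10 genes was 3.95 in replicate 1 (16 peaks) and 3.43 in replicate 2 (9 peaks), below the 5.21 and 4.72 of all exonic peaks of protein-coding genes. Fold enrichment is relative to the local background of each list, so these values do not rank the genes by m6A level.

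The replicates were then compared over the 8 shared peaks, defined by an overlap of at least 1 bp. All 8 had a higher fold enrichment in replicate 1, as did 80.2% of 11018 exonic pairs of protein-coding genes. The log2 ratio of replicate 1 over replicate 2 had a median of 0.44 over the 8 peaks and 0.43 over all pairs (quartiles 0.09 and 0.77). The log2 ratio was 1.36 for E2F3 exon 7, 1.24 for E2F4 and 1.19 for E2F1, at percentiles 95.3, 93.3 and 92.3 of all pairs. The other 5 shared peaks were between 0.02 and 0.54. Summits were at most 35 bp apart in 7 of the 8 pairs, with a median of 13.5 bp against 26.0 bp over all pairs.

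**Figure D3:**
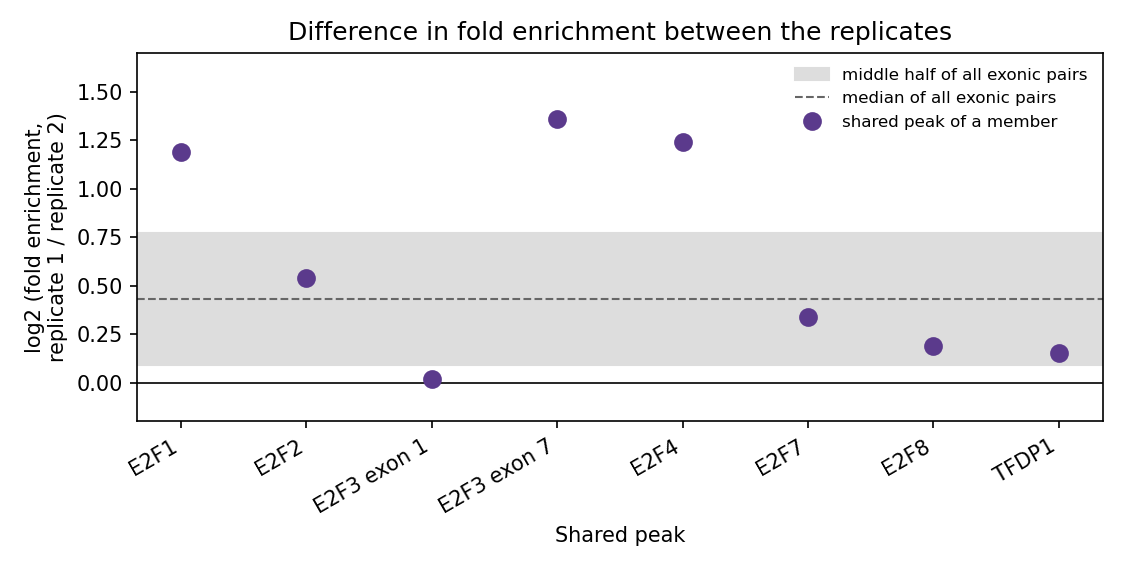
The log2 ratio of fold enrichment, replicate 1 over replicate 2, for each of the 8 shared peaks, with the band between the quartiles and the median (dashed) of 11018 exonic pairs. E2F1, E2F3 exon 7 and E2F4 lie above the band, E2F3 exon 1 lies below it near 0, and the other 4 lie within it.

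In replicate 2, 8 of 9 exonic peaks (88.9%) were shared, beside 95.9% of all exonic peaks of protein-coding genes in that list. In replicate 1, 8 of 16 were shared, beside 60.6% of all. The 8 unshared exonic peaks of replicate 1 had a fold enrichment from 1.80 to 6.99. The highest belonged to a peak in the 5′ UTR of E2F3, with its summit 113 nt from the mRNA start and a −log10 q of 12.5. E2F1 had one in its 3′ UTR, at position 874, with 4.59, and E2F7 one in CDS of exon 10 with 4.40. E2F2 had 3, at 2.67 in the 3′ UTR, 2.99 in CDS of exon 4 and 2.0 in the 5′ UTR. TFDP1 had one at position −21 with 1.80, and the remaining one was that of RB1. All 3 exonic summits of the set that were in a 5′ UTR or on a start codon (E2F2, E2F3 and RB1) came from replicate 1 alone. The share of such summits found in replicate 1 alone over all protein-coding genes is not given here. This count therefore does not set the 10 genes apart.

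**Figure D4:**
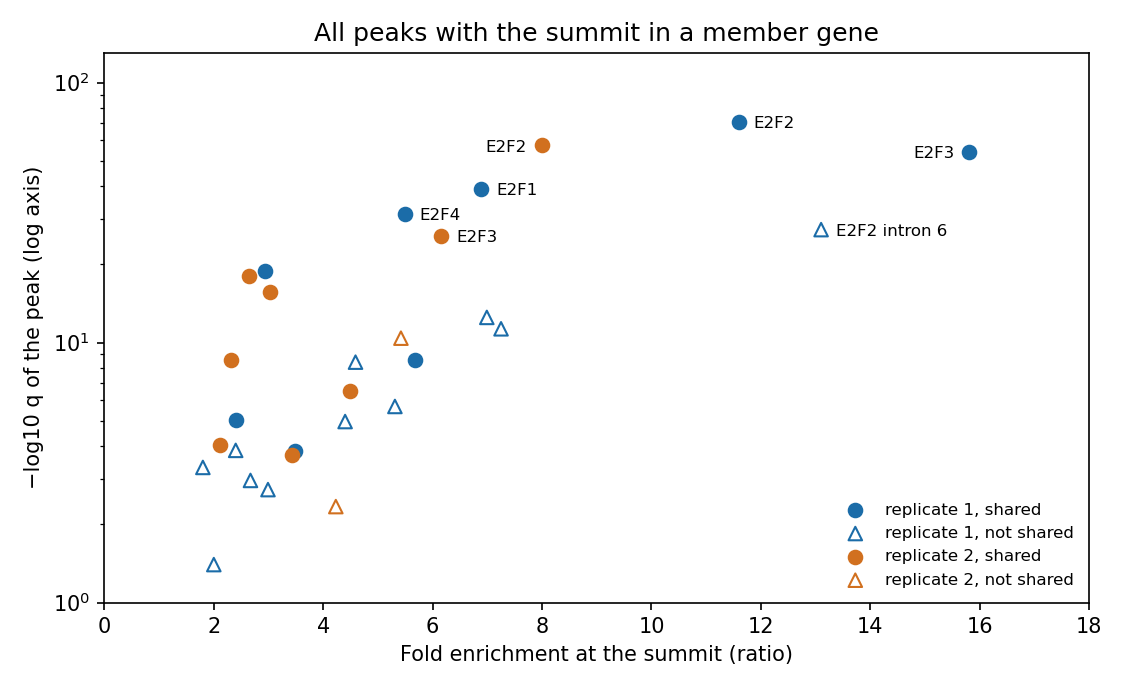
All 29 peaks with the summit in the 10 genes, by fold enrichment (ratio, x axis) and −log10 q (y axis, log scale), with filled circles for shared and open triangles for unshared peaks. In replicate 1 the peaks of E2F2, E2F3, E2F1 and E2F4 near the stop codon have the highest −log10 q (31.2 to 70.5), whereas in replicate 2 those of E2F1 and E2F4 lie below the TFDP1 peak, and the E2F2 peak in intron 6 is the strongest unshared peak.

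Outside exons, replicate 1 had 3 peaks and replicate 2 had the RB1 peak described above. The E2F2 peak in intron 6 (23516237 to 23516516) had a fold enrichment of 13.1 and a −log10 q of 27.2, higher in fold enrichment than any exonic E2F2 peak. Its summit was 2 nt from an exon, and 182 of its 280 bp were in exon 6, so it is intronic by the position of the summit only. The E2F3 peak in intron 6 (20488201 to 20488344) had a fold enrichment of 7.25, with its summit 11 nt from an exon and 48 of its 144 bp in exon 6. In contrast, the TFDP1 peak in intron 2 (113600330 to 113600531) was 10582 nt from the nearest exon, with a fold enrichment of 5.31. None of these peaks was shared.

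Motifs and regions were also counted at the exonic summits of the 10 genes. On the strand of the gene, GGAC was present within 50 nt of 8 of 16 summits in replicate 1 and 5 of 9 in replicate 2 (55.6%), beside 49.8% and 51.8% of all exonic summits of protein-coding genes. DRACH was present at 14 of 16 and 9 of 9, beside 85.6% and 89.0% of all. The window of 200 nt around the stop codon held 5 of 16 summits in replicate 1 (31.2%) and 4 of 9 in replicate 2 (44.4%), beside 24.6% of 16427 and 27.2% of 10827 exonic summits that lay on the transcript with the longest CDS. By the summit of replicate 1, 6 of the 8 shared peaks were in the last exon, beside 59.0% of 10182 shared exonic peaks that could be placed on such a transcript. GGAC was absent from the common interval of E2F7 and E2F8. The other 6 common intervals held 20 GGAC motifs, of which 11 were GGACC, 4 GGACA, 3 GGACG and 2 GGACT. The 3 GGACG do not meet DRACH, and no such breakdown over all peaks is given here.

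Other genes of the pathway were counted in the same way. Of 17 genes of E2F partners and pocket protein complexes, 9 had an exonic peak in replicate 1, 7 in replicate 2 and 6 in both (35.3%, beside 33.4% of all protein-coding genes). The strongest shared peaks were those of LIN52 (10.3 and 12.1 in replicates 1 and 2) and LIN54 (10.4 and 8.26), subunits of the MuvB core that works with pocket proteins, the histone methyltransferase gene SUV39H1 (8.33 and 8.96) and RBBP8 (8.23 and 5.19), which acts in DNA end resection. The pocket protein gene RBL1, like RB1, had an exonic peak in replicate 1 alone, and RBL2 had none. TFDP2, TFDP3, LIN37, RBBP4, HDAC1 and HDAC2 also had no exonic peak in either list. Of 29 target genes of E2F factors, 16 had an exonic peak in replicate 1, 9 in replicate 2 and 9 in both (31.0%). The strongest shared peaks were those of ORC1, a subunit of the origin recognition complex (18.3 and 7.20), RRM2, a ribonucleotide reductase subunit (9.89 and 8.05), the phosphatase gene CDC25A (12.5 and 3.85) and APAF1, a component of the apoptosome (5.59 and 5.14). Among the targets with no exonic peak in either list were CCNE2, CDK1 and CDC6, which act in the G1-S and later cell cycle transitions. The replicative helicase genes MCM4, MCM6 and MCM7 also had none, whereas MCM2, MCM3 and MCM5 had an exonic peak in both replicates.

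The labelled cell type could be checked only in part, since the lists give peaks and not expression. Of 12 epithelial and gastrointestinal markers, CDH1, CLDN3, CLDN4, HNF4A and GATA6 had an exonic peak in both replicates and VIL1 in replicate 1, whereas the keratins KRT7, KRT8, KRT18 and KRT19, EPCAM and ERBB2 had none. The share with a peak in both, 41.7%, stood beside 33.4% of all protein-coding genes, so these counts do not tell the cell type. Of 8 markers of other cell types, COL1A1 alone had one, in replicate 1.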

How the data were processed

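According to the methods of the study, total RNA was treated with DNase, fragmented and incubated with an anti-m6A antibody. The protocol in the labels instead starts from cells fixed by UV and lysed. Reads were mapped to hg38. The methods name TopHat2 as the aligner, while the submitters' processing notes name fastp and HISAT2; releases are not given in the sources used here. The authors called peaks with MACS2 at default settings, 1 list per sample. Whether the input served as control is not stated. For each peak the authors deposited a summit position and its fold enrichment, which is a ratio. Of the deposited −log10 p-values and −log10 q-values, the latter were used as given, and the deposited score, a whole-number form of −log10 q, was not used. No q exceeded 0.0491 in the list of replicate 1 or 0.0497 in that of replicate 2. Peaks have no strand, and fold enrichment depends on RNA abundance and local background.

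Genes and exons were taken from GENCODE version 44, and coordinates are 1-based. Positions on the mRNA were read on the transcript with the longest CDS, which was the MANE Select transcript for all 10 genes. Their spliced sequences from hg38 were identical to the GENCODE transcripts. A peak was exonic when its summit lay in an exon of any transcript of the gene. Motifs were searched in genomic windows of 50 nt on each side of the summit and in the interval common to both peaks, on the strand of the gene. The percentile of a fold enrichment is among the exonic peaks of protein-coding genes in the same list (18488 and 12003). No test was made: each list is 1 library, and nothing in the labels says that the replicates came from separate cultures. The genes and lists were chosen with earlier results of these data known. All 10 genes are named, with at most 4 further genes per pathway list ranked by the geometric mean of both fold enrichments of a shared peak, and genes without a peak, some of which are not reported here. RBL1, MCM2, MCM3, MCM5 and the cell type markers are named outside this rule. RBL1 and these MCM genes were added after their values were seen. The alternatives were 2 stricter q thresholds, a minimum fold enrichment, peak midpoints, any overlap with an exon, other overlap rules, other motif and stop codon windows, the MANE Select transcript (which could change nothing here), the strongest peak anywhere in the gene body, and the omission of 1 replicate at a time. The placing of summits, overlaps and motifs was tested on simulated data. Python 3.11.15, pysam 0.24.0 and matplotlib 3.10.9 were used.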

Additional observations from a re-analysis of the deposited data

How the results depend on the processing

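Of 66 counts recomputed under an alternative, 48 stayed within 1.5 times the reported count, and the shares over all genes or peaks were not recomputed. A fold enrichment of 5 or more moved the counts most. It left 5 of the 10 genes with an exonic peak in replicate 1, 3 in replicate 2 and 2 in both (E2F2 and E2F3), with 6 and 3 exonic peaks, of which 2 were shared in each list. GGAC was then at 5 and 3 summits, and 2 summits of replicate 2 were near the stop codon. With q of 1e-05 or less, replicate 1 had 9 exonic peaks. Peak midpoints in place of summits left GGAC at 5 summits in replicate 1 and 3 in replicate 2. A motif window of 25 nt gave 4 and 3 summits, and one of 100 nt gave 13 in replicate 1. A stop codon window of 100 nt held 3 summits of replicate 1 and 2 of replicate 2. Without replicate 1, and likewise without replicate 2, 8 genes had an exonic peak. With intronic summits included, the strongest TFDP1 peak of replicate 1 rose from 2.93 to 5.31. No paired analysis was possible because the results come from no test and no peak list of the input was analysed here. With 1 library per list and no read numbers, differences between the lists cannot be told apart from variation between libraries.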

Other observations

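The GGAC content of the whole transcripts was counted beside their peaks. The 10 transcripts held 163 GGAC motifs, of which 39 were inside an exonic peak in replicate 1, 22 in replicate 2 and 20 in both. The share of motifs inside peaks over all transcripts is not given here, so these counts do not set the 10 genes apart. The median over 20033 protein-coding transcripts was 3.84 GGAC motifs per kb. E2F4, E2F2 and E2F1 were rich in the motif, at 6.64, 6.54 and 6.32 per kb (percentiles 85.6, 84.9 and 83.0). E2F3, whose last exon carried the strongest exonic peak of the set in replicate 1, was the poorest at 2.58 per kb (percentile 25.9). E2F5, without a peak, had 4.07 per kb (percentile 54.0), and RB1, without a shared peak, had 18 motifs at 3.78 per kb (percentile 49.0). E2F2 had the most motifs, 34, and only 6 of them were inside a peak in both replicates, all within 152 nt of the stop codon. In E2F7 and E2F8, which had 19 and 17 motifs, none was inside a peak in both replicates. These are descriptions of the sequence, and no test was made.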
